A study of Mus musculus with 4 samples.

Results

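The nuclei described here were selected on RNA of Ms4a1 and Bank1, a pair of genes taken as a sign of mature B cells. They came from a single-nucleus multiome experiment, in which RNA and open chromatin (ATAC) were read from each nucleus. RNA is given as unique molecular identifiers (UMIs), each standing for 1 captured molecule. A nucleus was a member when its UMIs of Ms4a1 and Bank1 summed to 2 or more. Members were sought among barcodes that had 200 or more genes and whose ATAC counts in peaks lay from 1000 to 50000. Of 13619 nuclei kept in this way, out of 18961 barcodes, 56 were members. The rule rests on measured RNA, so the values of these and all other genes in the members are a description without a test.

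The nuclei came from lineage-negative, cKit-positive bone marrow cells (HSPCs, the stem and progenitor cells of the blood) of male C57BL/6 mice aged 8 weeks. In the Lig group, silk ligatures around the maxillary and mandibular second molars had been in place for 14 days to induce periodontitis, and in the Ctrl group no molar was ligated. Marrow of 5 mice was pooled in each group, so each group was 1 sample, with an RNA and an ATAC library. The sort removed cells bearing CD3e, CD11b, Gr-1, B220 or TER119, and most B cells carry B220. Both samples lay in 1 matrix under barcode suffixes 1 and 2. No label links a suffix with a sample, so these are named library 1 and library 2 here, belong to no group, and allow no comparison of Lig with Ctrl. Nothing was replicated. All intervals are at 95% and express counting error alone, and no p-value is given. Where a limit is given for a count of 0, it is what 3 counts of the total would make, which is lower than the upper bound of such an interval. For RNA of 1 gene in members it is 49.9 CPM in library 1 and 674 CPM in library 2.

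Naive mature B cells circulate through the blood and lymphoid organs, and some are found in the marrow. Their receptor is an IgM or IgD heavy chain with a kappa or lambda light chain, held in the membrane with CD79a and CD79b, and it signals through the kinases Lyn, Syk and Btk. Ms4a1 encodes CD20, a membrane protein of B cells, and Bank1 an adaptor that links the receptor to Lyn. Precursors of B cells instead express the surrogate light chain genes Vpreb1 and Igll1, the recombinase genes Rag1 and Rag2, and Il7r, and they carry little MHC class II.

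Library 1 held 50 members among 5905 kept nuclei, a share of 0.847% (Clopper-Pearson interval 0.629 to 1.11%). Library 2 held 6 among 7714, a share of 0.0778% (0.0285 to 0.169%). In library 1, 21 members had UMIs of both genes, 25 of Bank1 alone and 4 of Ms4a1 alone, and in library 2 these numbers were 2, 3 and 1. All 6 members of library 2 stood exactly at the threshold of 2 UMIs, as did 28 of those in library 1, while 11 in library 1 had 4 or more. Most members were thus chosen on 2 molecules. Nuclei with 2 or more UMIs of erythroid genes, which should lack both rule genes, numbered 67 and 18 in libraries 1 and 2, and 0 of them carried any UMI of Ms4a1 or Bank1, which allows shares of up to 4.48% and 16.7%. Their median depths were 2173 and 1853 UMIs. Of the kept barcodes, 72 occurred under both suffixes, and 0 of these were members.

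Members were shallower than the other nuclei. In library 1 their median was 985.5 UMIs against 1646, and 9014 ATAC counts against 19628. In library 2 it was 698 UMIs against 1517, and 4837 ATAC counts against 16299. The members' summed depth was 60109 UMIs and 629595 ATAC counts in library 1, but 4448 UMIs and 27751 ATAC counts in library 2. Each UMI of library 2 therefore weighs heavily in CPM, the UMIs of a gene scaled to the total of the set of nuclei, and values of library 2 are coarse throughout. The share of UMIs at the ribosomal locus was 38.9% in members and 43.1% in the others of library 1, and 51.2% and 53.2% in library 2. Depth was equalised further on only for shares of nuclei with a UMI, and its part in the other values was not tested.

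Regulatory sequences of the rule gene Bank1, of the receptor gene Cd79a and of 4 distal peaks are given first. The last 5 lie at peaks that were higher in members, while the Bank1 promoter is shown as that of a rule gene, and the start peak of neither rule gene was called in both libraries. They are in GRCm38 and run from 5′ to 3′ in lower case, with capitals marking a match to any of 12 motifs searched on both strands. These were the octamer of Oct factors (ATGCAAAT), the site of GATA factors (AGATAAG), CEBP (TTGCNNAA), RUNX (TGTGGT), AP-1 (TGACTCA), the E-boxes CAGCTG and CAGGTG, FOX (TGTTTAC), and 4 longer ones with free bases in the middle. Of these, EBF was TCCC and GGGA with 2 free bases between, the ETS-IRF composite GGAA and GAAA with 2, NF-kB GGGA and TTTCC with 1, and MEF2 CTA and TAG with 4. Known MEF2 sites hold A or T at those 4 bases, so the letters searched are looser than the site.
The promoter of Bank1, from 250 bases before to 50 after its start (chr3:136326017-136326316, minus strand, RefSeq), holds matches to CEBP, CAGGTG, the ETS-IRF composite and the looser MEF2 letters.
Bank1: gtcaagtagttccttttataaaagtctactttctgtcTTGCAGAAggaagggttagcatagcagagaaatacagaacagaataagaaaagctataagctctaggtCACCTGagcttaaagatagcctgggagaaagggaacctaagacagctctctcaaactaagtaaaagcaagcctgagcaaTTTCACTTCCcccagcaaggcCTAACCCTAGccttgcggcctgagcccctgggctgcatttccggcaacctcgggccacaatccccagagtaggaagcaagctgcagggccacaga
The promoter of Cd79a from the same source (chr7:24897247-24897546, plus strand) holds 1 E-box, CAGGTG.
Cd79a: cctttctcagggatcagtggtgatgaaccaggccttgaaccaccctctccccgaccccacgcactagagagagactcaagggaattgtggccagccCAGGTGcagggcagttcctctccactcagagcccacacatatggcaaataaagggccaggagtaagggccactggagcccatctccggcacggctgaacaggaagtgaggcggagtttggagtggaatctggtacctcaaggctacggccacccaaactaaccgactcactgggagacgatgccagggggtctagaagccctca
The other 4 are the central windows, on the plus strand, of distal peaks ranked 1, 2, 4 and 5 by their ATAC ratio in members. Peak A lies between Fli1 and Ets1 (chr9:32617452-32617751), peak B between Fam43a and Xxylt1 (chr16:30678770-30679069), peak C in an intron of Cx3cr1 (chr9:119988317-119988616) and peak D in an intron of Gm45062, between Umad1 and Glcci1 (chr6:8485572-8485871). Peaks B and C each hold the octamer, and peaks A, B and D the E-box CAGCTG.
Peak A: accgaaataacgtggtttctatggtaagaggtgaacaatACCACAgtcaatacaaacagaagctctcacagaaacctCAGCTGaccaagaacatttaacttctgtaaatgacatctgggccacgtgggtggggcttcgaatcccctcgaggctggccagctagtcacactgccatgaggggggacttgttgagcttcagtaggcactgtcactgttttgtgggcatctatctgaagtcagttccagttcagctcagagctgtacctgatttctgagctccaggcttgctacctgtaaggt
Peak B: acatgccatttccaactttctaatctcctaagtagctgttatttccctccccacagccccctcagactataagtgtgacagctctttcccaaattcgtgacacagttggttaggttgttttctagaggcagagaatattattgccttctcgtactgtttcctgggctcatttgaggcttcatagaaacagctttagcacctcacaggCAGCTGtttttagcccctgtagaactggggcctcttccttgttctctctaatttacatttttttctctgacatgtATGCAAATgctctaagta
Peak C: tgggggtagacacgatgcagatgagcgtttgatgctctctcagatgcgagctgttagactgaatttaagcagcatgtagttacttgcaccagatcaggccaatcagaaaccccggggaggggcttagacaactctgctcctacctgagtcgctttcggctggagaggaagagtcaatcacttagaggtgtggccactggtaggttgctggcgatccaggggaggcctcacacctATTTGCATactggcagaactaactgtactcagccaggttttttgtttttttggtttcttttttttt
Peak D: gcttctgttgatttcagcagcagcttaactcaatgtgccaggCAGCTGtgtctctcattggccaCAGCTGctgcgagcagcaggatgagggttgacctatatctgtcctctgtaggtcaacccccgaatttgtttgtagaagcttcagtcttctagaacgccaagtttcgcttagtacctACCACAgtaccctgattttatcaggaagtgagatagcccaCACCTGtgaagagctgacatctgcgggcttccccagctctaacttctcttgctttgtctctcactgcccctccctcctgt

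The label of mature B cells was then compared with the members' RNA. Antigen receptor genes as a list were at 1298 (1026 to 1619.5) CPM in members of library 1 and at 204 in the other nuclei, a ratio of 6.37 (5.01 to 7.98), and 34 of 50 members had at least 1 UMI of the list. In library 2 the ratio was 16.6 (4.51 to 42.7) from 4 UMIs in 2 of 6 members. All members together held 27 UMIs of Ighm and 8 of Ighd, and 0 of Ighg1, Ighg2b, Ighg2c, Ighg3, Igha and Ighe, which allows switched chains up to 8.57% of the heavy chain UMIs. Ighd made up 22.9% (10.4 to 40.1%) of the members' heavy chain UMIs and 6.41% (5.33 to 7.63%) of those in the other nuclei, where 284 switched UMIs were read. In the Gfra2 set of precursor nuclei described at the end it was 7.49% (5.33 to 10.2%), with 434 UMIs of Ighm, 37 of Ighd and 23 of switched chains, a share under the limit that members allow.

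Light chains were read as 17 UMIs of Igkc in 13 nuclei and 6 of Iglc2, a lambda constant gene, in 6 nuclei, and 2 nuclei held both kinds. Lambda thus made up 26.1% (10.2 to 48.4%) of the members' light chain UMIs. In the other nuclei 131 of 162 lambda UMIs were of Iglc1 and 12 of Iglc2, whereas members held 0 of Iglc1. These lambda genes are close in sequence, and reads could be split among them. A UMI of Ighm, Ighd or a light chain was present in 30 of 56 members, 29 of them in library 1. Variable segments gave 7 UMIs in 6 members, of which Igkv1-110 had 4 in 4 nuclei.

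Single genes of the receptor followed the list. Ighm was read in 19 of 50 members of library 1, at 433 CPM against 108 in the others, a ratio of 4.02 (2.61 to 5.92). The Gfra2 set of library 1 had Ighm in 277 of 659 nuclei at 317 (286 to 349) CPM, within the members' interval of 283 to 634, so a difference between them was not detectable at this depth. Cd79b, which with Cd79a carries the receptor's signal, had a ratio of 6.83 (3.49 to 12.1) from 12 UMIs, and 3 UMIs in library 2. Cd79a had 9 UMIs in 9 members of library 1, a ratio of 5.43 (2.46 to 10.5), and 0 in library 2.

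To place single genes, all genes with at least 20 UMIs over the kept nuclei of each library were assessed, Ms4a1 and Bank1 left out. A gene was called higher when its CPM in members was at least 2 times that of the others in both libraries with at least 10 member UMIs in all, and lower at 0.5 times or less with at least 10 UMIs expected in members. Of 10612 genes, 115 were higher (1.08%) and 37 lower (0.349%). In members of library 2 a single UMI made 225 CPM, so 1 molecule met the fold there for any gene at a low level in the others. The higher calls thus rest mainly on library 1. In library 1 alone, where 11127 genes were assessed, 203 were higher (1.82%). The median log2 ratio of all assessed genes in library 1 was -0.26 (pseudocount of 10 CPM). Each library was also scaled to the median ratio of its genes with 20 or more UMIs both in members and in the others. The shift on the log2 scale was 0.46 from 266 genes in library 1 and -0.19 from 8 genes in library 2. With it 63 genes were higher and 112 lower, so the balance between the directions depends on the scaling. A minimum of member UMIs favours genes that are high in members, and its part in this shift was not tested.

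The leading gene was Cd74, the invariant chain of MHC class II. It was read in 20 of 50 members of library 1 and in 4 of 6 in library 2. Its level was 616 (433 to 848) CPM against 15.2 in library 1, a ratio of 40.4 (27.4 to 58.1), and the ratio was 124 (33.0 to 328) in library 2. In the order of the smaller of both library ratios it was followed by Ikzf3, a zinc finger factor of mature lymphocytes, at 36.9 (22.5 to 58.4) in library 1. Next came Tmem163, a zinc transporter, at 31.5 (19.0 to 49.9), and Cd55, a regulator of complement, at 30.7 (14.6 to 58.9). H2-Ab1, the beta chain of the class II molecule I-A, stood at 16.7 (7.38 to 33.0) in library 1 and 151 (30.2 to 464) in library 2.

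**Figure D1:**
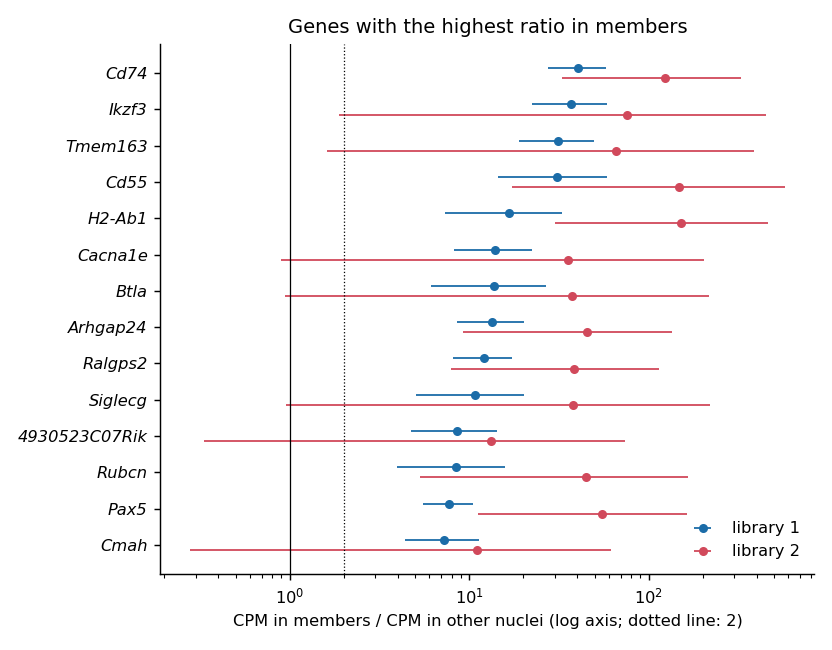
Ratio of CPM in members to CPM in the other nuclei for 14 of the 15 genes ranked highest by the smaller of both library ratios, on a log axis. Points are ratios and bars exact conditional 95% intervals in library 1 (50 members) and library 2 (6 members). Cd74 leads with 40.4 in library 1, and the bars of library 2 are wide, each resting on 1 to 4 UMIs.

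The other 10 of these 15 genes had ratios between 7.25 (Cmah) and 14.0 (Cacna1e, a calcium channel) in library 1. Several encode parts of B cell signalling. These were Btla, an inhibitory receptor (13.7), Siglecg, an inhibitory lectin (10.8), and Ralgps2, an exchange factor for Ral (12.1). Pax5, the factor that fixes B cell identity, was at 7.71 (5.54 to 10.5). Cmah, which makes the glycolyl form of sialic acid, Arhgap24 (13.4), Rubcn (8.43) and 4930523C07Rik (8.54) were named by the same ranking. In library 2, Cmah, 4930523C07Rik, Cacna1e, Btla and Siglecg each rested on 1 UMI, and their intervals there held a ratio of 1. They ran from 0.279 to 62.1 for Cmah and from 0.892 to 205 for Cacna1e. Library 1 by itself put Agbl1 first, with 24 UMIs in 13 members and a ratio of 59.2 (35.6 to 95.5). Klhl14 (38.7) and Myo1e (37.6) also stood near the top there. Members of library 2 had 0 UMIs of these 3 genes, which allows up to 674 CPM of each.

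The lower calls rest on library 1, since a gene with 0 UMIs in library 2 met the threshold there whatever its level, and the same holds for lower peaks. Of the 10 lower genes named, the upper bound of the ratio in library 2 was 3.41 (Parp8) at the least. At the lower end, Aopep and Mctp1 had 0 UMIs in all 56 members against 192 and 183 CPM in the others of library 1, where a count of 0 in members allows 49.9 CPM. Dach1 had 1 UMI in members against 173 CPM in the others (ratio 0.0963, interval 0.00244 to 0.537). Tiam1 (0.169), Fut8 (0.230), F13a1, a monocyte gene (0.238), and Parp8 (0.247) followed. Ewsr1 (0.257), Lrmda (0.259) and Runx2 (0.280) made up the 10 named. Mpo, the myeloperoxidase of granulocyte progenitors, was also among the 37, at 366 CPM against 883 in library 1 (ratio 0.414, interval 0.260 to 0.628). Of the 37, 11 were still called when members with 2 or more UMIs of another lineage were left out, and 16 without the members of high ATAC depth described further on.

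MHC class II genes and their partners had the largest ratio of the lists with an assessed gene in library 1. The 13 genes summed to 1331 (1055 to 1656) CPM against 79.4, a ratio of 16.8 (13.1 to 21.1), and in library 2 to 2923 (1556 to 4998) against 48.3, a ratio of 60.5 (32.1 to 104). A UMI of the list was found in 30 of 50 members and in 5 of 6. Of 9 assessed genes of the list, 2 were called, Cd74 and H2-Ab1, where 1.08% of all assessed genes were. The median log2 ratio in library 1 was 2.24 over this list, 2.35 over surface genes, 1.54 over receptor signalling and 1.49 over B lineage factors, beside -0.26 over all assessed genes. H2-Aa, the alpha chain of I-A, had 10 UMIs in 7 members of library 1 (ratio 23.98, interval 11.0 to 46.7) and 0 in library 2. Ciita, the transactivator of the class II genes, had 6 UMIs in library 1 and 2 in library 2, against 2.05 and 2.55 CPM in the others.

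Among B cell surface genes, 4 of 7 assessed were higher, among them Cd37, Btla and Cd55. Beside this and each later count of higher genes in a list stands 1.08% of all assessed genes, and beside lower ones 0.349%. These shares include genes with too few UMIs to reach the 10 member UMIs, or 10 expected, that a call needs. Genes of like expression were not set beside the lists, and the lists were chosen with earlier results known. The part of expression level in the list counts was not tested. Cd37, a tetraspanin, was at 283 CPM against 61.8 in library 1 (ratio 4.58, interval 2.65 to 7.39). Ly6d, a surface marker of committed lymphoid cells, had 10 UMIs in 7 members of library 1 and 0 in library 2. Receptors for complement and IgM were too rare to be assessed. Cr2, or CD21, had 5 UMIs in 5 members and 3 in the 5855 other nuclei of library 1, and Fcmr 5 and 6. Cd22, an inhibitory lectin, had 0 UMIs in members, which allows up to 49.9 CPM in library 1, where the others were at 1.76. Fcer2a (CD23) had 1.

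Signalling genes below the receptor were higher in 7 of 17 assessed. Syk was read in 27 members of library 1 at 799 CPM against 120.2 (ratio 6.64, interval 4.87 to 8.87) and Lyn in 28 at 732 against 125 (5.86, interval 4.23 to 7.91). Pik3ap1, an adaptor to PI3 kinase (5.08), the kinase gene Prkcb (4.42), the paracaspase gene Malt1 (4.197) and the phospholipase gene Plcg2 (2.11) were called too. Other genes of the chain were not called, with Blnk at 1.91 (1.13 to 3.04), Btk at 2.01 (0.805 to 4.17) and Vav3 at 0.776 (0.434 to 1.28). Of 7 assessed inhibitors of the receptor 1 was higher, Siglecg, with Inpp5d at 1.40 and Pecam1 at 1.84.

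Factors of the B lineage were higher in 6 of 19 assessed and lower in 0. Pax5 was read in 26 of 50 and 3 of 6 members, at 715 CPM against 92.8 in library 1. Bach2, a repressor that holds off plasma cell fate, was at 1115 against 304 CPM (3.67, interval 2.84 to 4.67), and Pou2f2 (Oct2), which binds the octamer, at 349 against 59.6 (5.86, interval 3.60 to 9.04). Ebf1, an early B cell factor, had 128 UMIs in 37 members and a ratio of 2.20 (1.84 to 2.62), and Bcl11a was at 3.33. In library 1 alone Foxo1 (5.76), Irf4 (18.9), Nfatc1 (4.54) and Ikzf1 (2.11) were past the fold as well. Mef2c (1.91), Tcf4 (1.24), Irf8 (0.955) and Etv6 (0.571) were called in neither direction.

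Rel, an NF-kB subunit, was the 1 called gene of 8 in its list, at 349 against 158 CPM (2.21, interval 1.36 to 3.39), while Nfkb1 was at 1.62 (0.942 to 2.60). Homing genes gave 0 calls of 9 assessed in both libraries, with Itga4, an integrin chain, at 1.32 in library 1. Among sensors of microbes, Unc93b1, a chaperone of Toll-like receptors, was called (2.09 in library 1). Cd180 stood at 10.1 (4.77 to 19.1) in library 1, and Tlr7 and Tlr9 had 0 UMIs in members. Notch2, which marginal zone B cells need, was called at 2.47 (1.31 to 4.25). Lists for B1, germinal centre, plasma cell and age-associated B cells gave 0 calls in both libraries, with 2, 3, 5 and 1 genes assessed, and Cd5, Jchain and Prdm1 had 0 UMIs in members. The plasma cell list was still at 283 against 84.6 CPM in library 1, a ratio of 3.34 (1.94 to 5.38). Of its 17 UMIs there, 13 were of Irf4, also counted among the lineage factors. The 17 assessed interferon response genes gave 0 calls either way, and their list stood at 416 (269 to 614) CPM against 279 in library 1.

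Markers of other lineages were few in members, apart from myeloid and progenitor ones, but most of these lists were also low in the other nuclei. In library 1, 31 of 50 members had a UMI of the granulocyte list and 19 one of the stem and progenitor list. Fewer than 2 UMIs of each other lineage's list were found in 32 of the 50, and in all 6 members of library 2. T cell genes summed to 1 UMI over both libraries, NK and erythroid genes to 0, and conventional dendritic, basophil and mast, and megakaryocyte genes to 1 each. The others of library 1 stood at 23.4, 11.4, 42.8, 7.72, 39.0 and 31.0 CPM of these 6 lists, and the intervals of the members' ratios reached 1.44 (erythroid) or more, so none was shown to be lower in members at this depth. The defining markers Cd3e, Trac, Hba-a1, Pf4, Csf1r and Siglech were at 0. The granulocyte list was present but lower than in the others, at 1148 (893 to 1453) CPM against 1947 in library 1 and 674 against 3134 in library 2, with Mpo the 1 called gene of 9. The monocyte list stood at 233 against 503 and the plasmacytoid dendritic list at 49.9 against 216 CPM in library 1. Stem and progenitor genes were at 499 (337 to 712) CPM against 598, with 0 of 8 called. Kit, whose product was used in the sort, was at 83.2 against 138 CPM. The proliferation list had a ratio of 0.808 (0.639 to 1.01) and the B precursor list one of 1.22 (0.981 to 1.505). In the latter Cacna1e was the 1 called gene of 17.

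**Figure D2:**
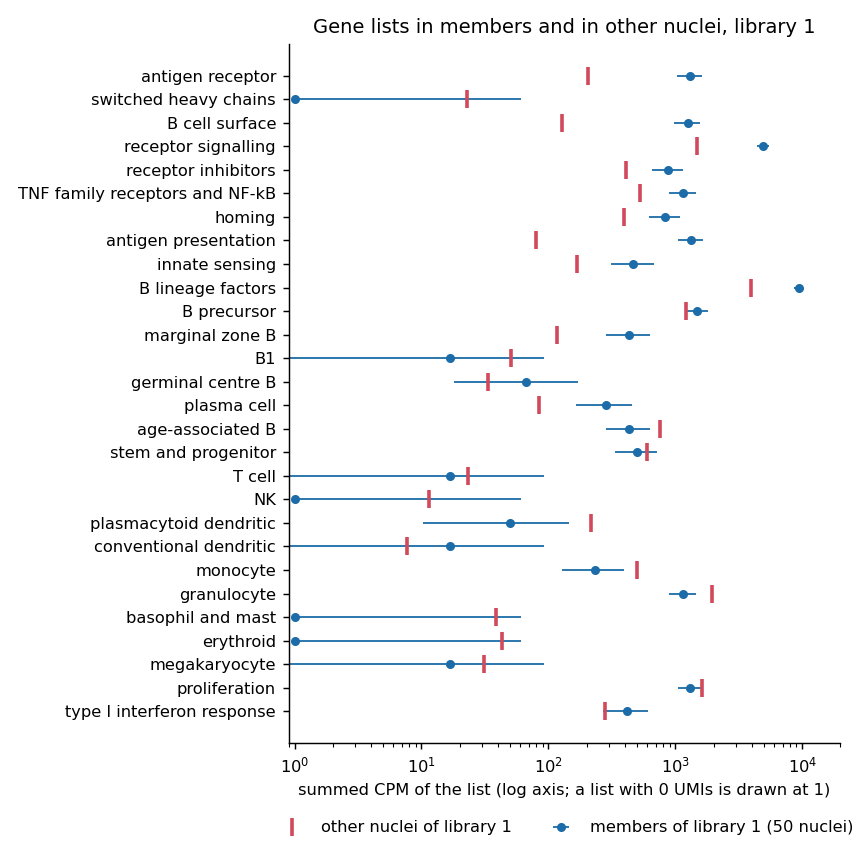
Summed CPM of each of the 28 gene lists in library 1, on a log axis. Points are the 50 members with exact Poisson 95% intervals, ticks the 5855 other nuclei, and lists with 0 UMIs are drawn at 1. Antigen presentation genes are at 1331 CPM in members against 79.4, while the granulocyte and monocyte lists lie below the other nuclei.

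Because members are shallower, shares of nuclei with a UMI were also compared at 1 depth. At the planned depth of 1000 UMIs 25 members of library 1 remained, and Cd74 was present in 24% (9.36 to 45.1%) of them, in 1.14% of 4840 others and in 0 of 66 erythroid nuclei. At 500 UMIs all 50 members could be used, and the share was 36% (22.9 to 50.8%) against 0.936% of 5771 others. The antigen receptor list was present in 48% of members, 9.58% of others and 0 of 67 erythroid nuclei at that depth. The antigen presentation list was present in 46%, 4.12% and 1.49%. Without thinning Cd74 was in 40% of members.

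Members were not alike. Those of library 1 with both rule genes had 2795 (2099.6 to 3647) CPM of the antigen presentation list, those with Bank1 alone 694 (444 to 1032) and the 4 with Ms4a1 alone 323 (39.2 to 1168). Cd74 was at 1242 (796 to 1848) CPM with both genes and 376 (200 to 642) with Bank1 alone. The 4 with Ms4a1 alone had 0 UMIs of Cd74, which allows up to 485 CPM, so their place in this order was not measured. For Pax5 the values were 1242, 405 and 808 CPM. The B precursor list was at 1190.4 (755 to 1786) with both genes and 1647 (1248 to 2134) with Bank1 alone, and these intervals overlap.

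A second division lay in the ATAC depth, and it was chosen after the values had been seen. Of the members, 9, all in library 1, had more ATAC counts than the median of the other nuclei, and 0 of the 21 members with both genes were among them. Over 19404 UMIs these 9 held 0 UMIs of Cd74, Ighm, Ighd, Igkc, Cd79a and Pax5, which allows up to 155 CPM of each. The other 47 members, with 45153 UMIs, held 908 (652 to 1232) CPM of Cd74, 598 (394 to 870) of Ighm, 376 (219 to 603) of Igkc and 1019 (746 to 1359) of Pax5. Antigen presentation genes stood at 309 (113 to 673) CPM in the 9 and 1927 (1543 to 2377) in the 47.

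For lists of other states the intervals of the 9 and the 47 overlapped. This does not show that they were alike, and a difference was not tested. Each list given here but the monocyte one had a higher value in the 9. The proliferation list was at 1649 (1128 to 2328) CPM against 1085 (803 to 1435) in the 47, the granulocyte list at 1598 (1086 to 2268) against 908 (652 to 1232), and the stem and progenitor list at 722 (394 to 1211) against 354 (203 to 575). The B precursor list was at 1804 (1256 to 2509) against 1240.2 (937 to 1611), and the monocyte list at 206 (56.2 to 528) against 244 (122 to 436). Il7r had 4 UMIs in the 9 and 1 in the 47, Erg, a factor of progenitors, 6 and 2, Dntt, the terminal transferase of lymphoid precursors, 1 and 4, and Igll1 0 and 1. Markers of mature B cells were thus present in the 47. The 9 had 0 UMIs of Ighm, Igkc and Pax5 at this depth but 4 of Cd79b. They also held 21 UMIs of Ebf1 in 4 nuclei and 10 of Bach2 in 3. Their B lineage factors were at 6442 (5362 to 7675) CPM, against 3982 in the other nuclei of library 1. Surface genes were at 361 (145 to 743) against 129, and antigen receptor genes at 206 (56.2 to 528) against 204. The 9 are thus named by the rule alone, with RNA of B lineage factors but few receptor UMIs.

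Chromatin was not used by the rule. Across the genome, 103952 peaks had at least 200 counts in each library, of which 402 (0.387%) were higher in members by at least 2 times in both libraries with at least 20 member counts, and 93 (0.0895%) lower. In library 1 alone 890 of 106581 were higher (0.835%). The request for both libraries adds little, since 266 of the 402 had 1 or 2 counts in library 2, the yield of 1 fragment. Of the 402, 28.9% lay within 1 kb of an annotated start of a protein-coding gene against 15.6% of all assessed peaks, and 36.8% were intergenic. Of the 93 lower peaks 63.4% were at starts. Of the 93, only 5 were called without the members of high ATAC depth and 3 without members holding UMIs of other lineages. In members with both genes 0 of them were called. A lower call also needed 20 counts expected in members. These count minimums favour strongly open peaks, and their part in the shares at starts was not tested.

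A set of peaks was therefore chosen in library 1 and read in library 2, whose members had no part in the choice. It held 133 peaks at 4 times or more in the members of library 1 with at least 20 counts. In the 6 members of library 2, 0.512% (0.400 to 0.645%) of all ATAC counts fell in the set, against 0.0726% in the other nuclei of library 2. The 6 nuclei had 0.291, 0.421, 0.496, 0.555, 0.673 and 0.725%. All 6 lay above the 95th percentile of the others, which was 0.226%, and 2.32% of the others reached the lowest of them. In library 1, where the set was chosen, members had a median of 0.764% and the others of 0.0701%. Members with both genes had a median of 0.882% there, those with Bank1 alone of 0.644%, and the 9 members with high ATAC depth of 0.254%.

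**Figure D3:**
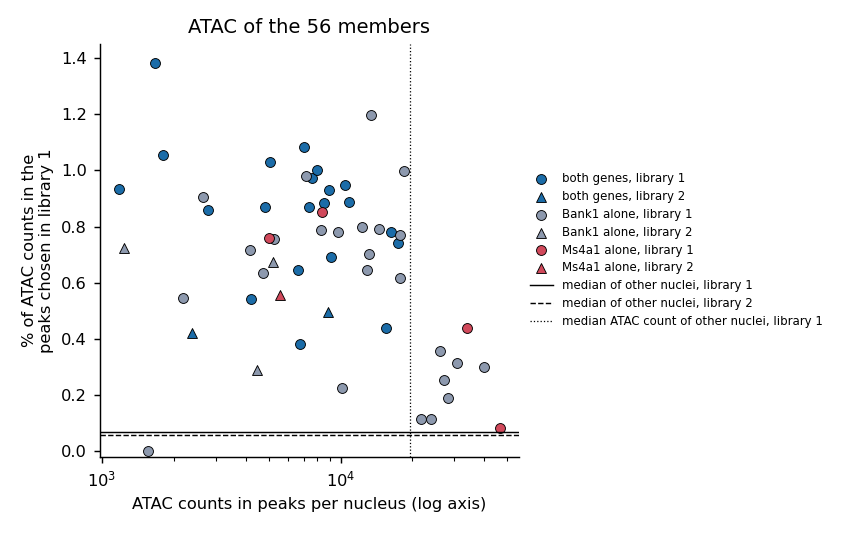
Percent of a nucleus' ATAC counts in the 133 peaks chosen in library 1 against its ATAC counts in peaks (log axis), for all 56 members by rule gene and library. Lines are medians of the other nuclei. The 6 members of library 2, not used to choose the peaks, lie between 0.291 and 0.725%, and the 9 members with the most ATAC counts relative to the others lie between 0.0838 and 0.439%.

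The same set was read in nuclei just below the rule. At 1 UMI of Ms4a1 or Bank1, 25 of 122 nuclei of library 1 and 13 of 58 of library 2 reached 0.291%. In library 1 those 25 nuclei held 4702 CPM (3889 to 5636) of the antigen receptor, surface and presentation lists together, the other 97 held 705 (588 to 839), and the members 3876 (3395 to 4407). In library 2 the values were 2277 (1513 to 3290) for the 13, 220.0 (128 to 352) for the other 45, and 4946 (3100 to 7488) for members. At 0 UMIs, 337 nuclei of library 1 (5.88%) reached 0.291% and held 1427 CPM (1315 to 1546) of these lists, against 351 (340 to 364) in the other 5396. Just inside the rule, the 34 members at 2 UMIs had Cd74 at 489.5 (303 to 748) CPM and antigen presentation genes at 1166 (865 to 1537). Just outside, the 180 nuclei at 1 UMI had 44.1 (23.5 to 75.5) and 221 (170.3 to 281).

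At the rule genes, whose RNA in members is set by the rule, only the ATAC counts are given. The peak at the Ms4a1 start had 23 counts in 11 members of library 1, or 36.5 CPM of ATAC counts (18.6 to 64.6) against 3.59 in the others, a ratio of 10.2. The peak at the Bank1 start (chr3:136325590-136326505) had 16 counts in 5 members, or 25.4 CPM (11.0 to 50.1) against 20.98, a ratio of 1.21. Within the introns of Bank1, 1 peak had 10 counts in 5 members, with a ratio of 3.22. Members of library 2 had 0 counts in the start peak of either gene.

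**Figure D4:**
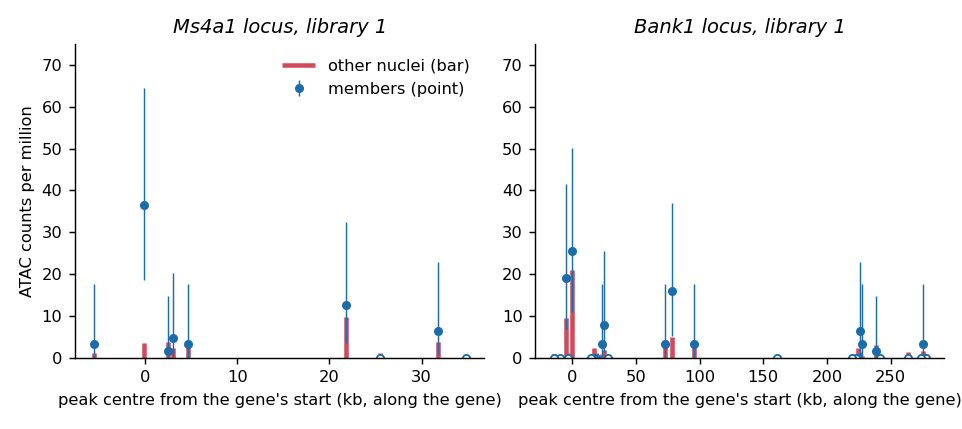
ATAC counts in CPM at each peak from 20 kb before to 20 kb past Ms4a1 and Bank1, against the distance of the peak's centre from the gene's start in kb along the gene, in library 1. Points are the 50 members with 95% Poisson intervals on pairs of counts (open points at 0), bars the 5855 other nuclei. The Ms4a1 start peak is at 36.5 in members against 3.59, and the Bank1 start peak at 25.4 against 20.98.

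Starts of other B cell genes were open to different degrees in library 1. For the receptor, the Cd79a start peak, which spans the promoter printed above, had 22 counts in 8 members (ratio 3.42) and 2 counts in library 2, and the Cd79b start peak 16 counts (3.86) and 0. Among surface genes, the start peaks of Cr2 (3.28), Cd55 (2.47) and Cd72 (2.34) were called in both libraries. Of the lineage factors, Pou2af1, a coactivator of Oct factors, had 36 counts in 16 members (4.41), Ebf1 29 (3.56), Irf4 29 (2.46) and Pax5 15 (4.59). Other genes with higher RNA had start peaks at or below the level of the other nuclei, with Bcl11a at 0.477 and 0.849 and Pou2f2 at 0.569 and 0.937. Btla, with an RNA ratio of 13.7, had one at 0.571 and another at 3.22, from 4 and 5 counts. In all, 4 of 48 assessed peaks at starts of factors and 3 of 16 at those of surface genes were higher in both libraries. Among all assessed peaks 0.387% were higher, and of these start peaks 0 were lower. The part of the count minimum in these shares was not tested. Start peaks of Ikzf1 (1.15), Zfp318 (1.09), Irf8 (0.960) and Etv6 (0.889) stood near the other nuclei. For class II, H2-Ab1 was at 3.27 and Cd74 at 4.38.

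Over all start peaks of a list in library 1, the ratio was 2.58 (1.63 to 3.88) for the antigen receptor, 2.40 (1.99 to 2.86) for B cell surface genes, 1.64 (1.42 to 1.90) for antigen presentation and 1.42 (1.29 to 1.57) for the lineage factors. In library 2 it was 4.03 (2.46 to 6.22) for antigen presentation and 2.22 (1.45 to 3.25) for the factors. The B precursor list was at 1.27 (1.06 to 1.502) in library 1, an interval that overlaps that of the lineage factors, and at 0.648 (0.108 to 2.07) in library 2, with 0 of 29 assessed peaks called. In library 1 the interval lay below 1 for the granulocyte list, at 0.116 (0.0240 to 0.341), the megakaryocyte list, at 0.343 (0.0933 to 0.879), the conventional dendritic list, at 0.392 (0.144 to 0.855), the monocyte list, at 0.555 (0.277 to 0.994), and the stem and progenitor list, at 0.732 (0.547 to 0.959). The T cell list was at 1.09 (0.662 to 1.68) and the erythroid list at 0.960 (0.635 to 1.39).

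Distal peaks led the ranking of single peaks. Peak A, 18.2 kb from Ets1, had 22 counts in 12 members of library 1, 34.9 CPM against 3.11, and 2 counts in library 2. Peak D, 23.5 kb from Glcci1, had 48 counts in 19 members, 76.2 CPM (48.8 to 113) against 7.59, and 4 counts in library 2. Peak B had 18 counts in 10 members (ratio 11.1) and peak C 16 in 7 (10.5), with 2 and 4 counts in library 2. The rest of the first 10 were a peak between Irs2 and Col4a1 (10.7), one in an intron of Phc2 (9.23), one 178.9 kb from Myc (8.07), one in an intron of Cd9 (7.80), one 1.5 kb from Cemip2 (6.95) and one 7.9 kb from Scd3 (6.94). A peak 31.8 kb from the start of Igha on its 3′ side (chr12:113227933-113228850), where the heavy chain locus has its 3′ enhancers, was among the 402, with 22 counts in 10 members and a ratio of 6.79.

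Called genes were also set beside called peaks. Of the 114 higher genes with a position, 22.8% had a higher peak within 50 kb, and 1.75% a lower one, against 6.11% and 1.80% of 10139 assessed genes. Of the 35 lower genes with a position, 11.4% (4 genes) had a higher peak and 0 a lower one. Both kinds of gene were longer, with medians of 110 kb for higher and 238 kb for lower genes against 27.3 kb, and the part of length in these shares was not tested.

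Motif letters in the central 300 bases were counted in the 402 higher peaks and in all assessed peaks. The octamer was in 17 (4.23%, interval 2.48 to 6.68%) against 1.57%, EBF in 15 (3.73%, 2.10 to 6.08%) against 1.04%, and the ETS-IRF composite in 42 (10.4%, 7.63 to 13.9%) against 5.51%. The E-box CAGGTG, seen in the Bank1 and Cd79a sequences above, was in 134 (33.3%, 28.7 to 38.2%) against 19.6%, and CAGCTG in 109 (27.1%) against 20.6%. CEBP letters were less frequent, in 28 (6.97%, 4.68 to 9.91%) against 13.9%. Intervals of GATA (2.49% against 3.64%), RUNX (25.4% against 29.1%), AP-1 (6.72% against 8.20%) and MEF2 (4.73% against 4.30%) held the share of all peaks. So did those of NF-kB, in 6 peaks (1.49%, 0.550 to 3.22%, against 0.568%), and FOX, in 22 (5.47%, 3.46 to 8.17%, against 3.49%). In the central 200 bases the share of all peaks with NF-kB letters was 0.410%, outside the interval, while the other 11 motifs stayed on the same side.

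Median GC content was 53.7% in the higher peaks and 50.3% in all assessed ones. The part of base content, of starts or of the count minimum in the motif shares was not tested. Of all 32851 promoters of the RefSeq table, 1.74% held the octamer, 0.904% EBF, 2.72% the composite, 20.2% CAGGTG, 16.3% CAGCTG, 16.8% RUNX, 10.8% CEBP and 3.69% MEF2. A match of letters does not show that a factor was bound. The 402 peaks were called over all members, and the 9 of high ATAC depth gave 278239 of the 629595 ATAC counts in library 1. Of the 402, 247 were also called without these 9, and 24 in members with both genes. Motif shares were not counted for those calls.

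**Figure D5:**
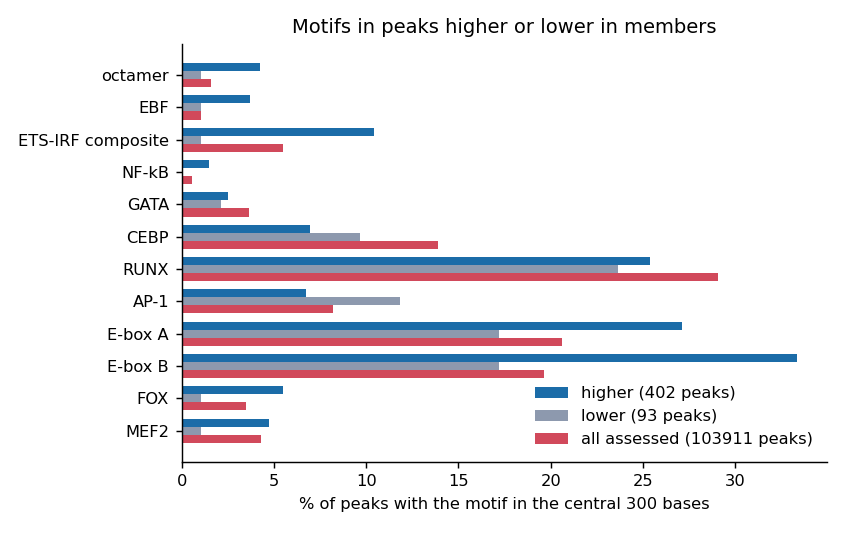
Percent of peaks with each of 12 motifs in their central 300 bases, for the 402 peaks higher in members, the 93 lower and the 103911 assessed peaks with sequence. E-box A stands for CAGCTG and E-box B for CAGGTG. The octamer is in 4.23% of higher peaks against 1.57% of all, and CEBP letters in 6.97% against 13.9%.

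Members were last set beside 2 sets of nuclei nearer to the B cell precursor. Of these, 919 had 2 or more UMIs over Gfra2, Cplx2 and Cecr2 and 100 had 2 or more over Cacna1e and Ankrd33b. Nuclei that met more than 1 of the 3 rules were left out, which left 882 (the Gfra2 set), 62 (the Cacna1e set) and 49 of the 56 members. Values are over both libraries together, and the mix differed, with 46637 of 51085 UMIs from library 1 in members, 1251067 of 1619102 in the Gfra2 set and 56366 of 78294 in the Cacna1e set. The antigen presentation list was at 1546 (1224 to 1927) CPM in members, 55.6 (44.7 to 68.3) in the Gfra2 set and 345 (227 to 502) in the Cacna1e set. Cd74 was at 685 (477 to 953), 6.79 (3.39 to 12.2) and 128 (61.2 to 235) CPM. Ikzf3 ran in the same order, at 431, 10.5 and 128 CPM, and so did Lyn, at 763, 115 and 307. In library 1 alone the antigen presentation list was at 1415 (1094.5 to 1800.5), 57.6 (45.0 to 72.5) and 355 (217 to 548) CPM. Pax5 was at 842 (609 to 1134) CPM in members, 345 (317 to 374) and 243 (146 to 379) in the precursor sets. Ebf1 was lower in members, at 1879 (1522 to 2295) against 4059 (3961 to 4158) and 2823 (2463 to 3220.4) CPM.

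The B precursor list was at 998 (743 to 1313) CPM in members, 4036 (3939 to 4135) in the Gfra2 set and 3985 (3555 to 4453) in the Cacna1e set. That list contains genes that chose these sets, so genes outside their rules are given too. Members that also met a precursor rule had been left out, which lowered the members' values of such genes. Vpreb1 was at 19.6, 268 and 153 CPM, Igll1 at 0, 139 and 51.1, and Lef1, a factor of lymphoid precursors, at 19.6 (0.496 to 109), 474 (441 to 508) and 575 (419 to 769). The proliferation list was at 803 (576 to 1089), 3233 (3146 to 3321) and 919.6 (719.5 to 1158) CPM. In library 1 alone the B precursor list was at 1051, 4283 and 4613 CPM and the proliferation list at 836, 3524 and 1029. With no member left out, all 56 held 1410 (1135 to 1731) CPM of the B precursor list over both libraries. They held 62.0 of Vpreb1, 15.5 of Igll1, 31.0 of Lef1 and 1255 (996 to 1559) of the proliferation list. Receptor signalling genes were at 4894 (4306 to 5539.6), 2326 and 2363 CPM. The Cacna1e set held 74 UMIs of switched heavy chains, 73 of them Igha in 3 nuclei, and 43 of Igkc in 1 nucleus, against 0 switched UMIs in members. In the 133 peaks chosen in library 1, the Gfra2 set had a median of 0.208% and the Cacna1e set of 0.190% in library 2, where members had 0.526%. The sets overlapped, since 31 of 223 nuclei of the Gfra2 set (13.9%) and 4 of 15 of the Cacna1e set (26.7%) reached 0.291%, the lowest member there, and the highest values were 0.546% and 0.650%.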

How the data were processed

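Single-nucleus RNA and ATAC libraries of sorted HSPCs were processed by the authors on GRCm38 with Cell Ranger ARC 2.0.0, Seurat 4.0.3 and Signac 1.3.0, per the submitters' notes. The deposited matrix holds raw counts, UMIs for 32272 genes and transposase counts for 174339 peaks, in 18961 barcodes of both samples. The study removed nuclei with few genes, many mitochondrial reads or extreme fragment numbers, whereas here the barcodes with 200 or more genes and 1000 to 50000 counts in peaks were kept. No doublet caller was run, and in its place members with 2 or more UMIs of any list of another lineage were left out as an alternative. ATAC counts come mostly in pairs, so their intervals were computed on pairs.

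Counts were summed over members and over other kept nuclei in each library and scaled to CPM. RNA CPM carry exact Poisson intervals, shares Clopper-Pearson intervals and ratios exact conditional intervals (scipy 1.17.1, numpy 2.4.6, pandas 2.3.3, Python 3.11.15). Genes were assessed at 20 or more UMIs in each library and peaks at 200 or more counts. The ribosomal locus stands for Gm42418, Gm26917 and AY036118. For thinned shares, UMIs of a nucleus were drawn without replacement, and shallower nuclei were left out. Positions came from GENCODE M21, promoters from RefSeq (GRCm38), whose table held both genes shown. Depth was 60109 and 4448 member UMIs in libraries 1 and 2, and counts limit precision, most of all in library 2. With 1 sample a group and suffixes linked to no sample, no comparison of groups and no test was made. The code was tested on simulated data.

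Named were the genes of the lists with 10 or more member UMIs or with a value bearing on the label, the 15 genes called higher and 10 called lower with the most extreme ratio in the library nearer to no change, and the 10 peaks ranked likewise. Genes named with fewer UMIs were chosen after their values were seen. Members and lists were chosen with earlier results of these data known. Some genes and 1 sequence that these rules cover are not reported here.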

Additional observations from a re-analysis of the deposited data

How the results depend on the processing

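No paired analysis was possible because each group was 1 sample and the result comes from no test. Asking for 3 or more summed UMIs, for both genes, or for 500 genes per nucleus left 22, 21 and 23 members in library 1 and 0, 2 and 0 in library 2. With 3 or more UMIs calls in both libraries could not be made. Genes higher numbered 115, and 56 at a fold of 3, 28 in members with both genes, 63 under median-of-ratios scaling, 365 with libraries pooled and 203 in library 1 alone. Genes lower numbered 37, and 15, 9, 112 and 24 under the first 4 of these, 18 without members holding UMIs of other lineages, 23 without members of high ATAC depth, and 9 at 3 or more UMIs in library 1 alone. Peaks higher numbered 402, and 141 at a fold of 3, 234 with both genes and 890 in library 1 alone. Peaks lower numbered 93, and 27 at a fold of 3, 0 with both genes, 14 without members holding other lineages' UMIs, 13 without members of high ATAC depth and 1 at 3 or more UMIs in library 1 alone. The alternatives on ATAC depth and on library 1 alone were chosen after seeing the data. Members with both genes, 2 of them in library 2, shared 17 of the 115 genes and 24 of the 402 peaks. Leaving out other-lineage members kept 71 and 223, and leaving out those of high ATAC depth 99 and 247. Without thinning, 68% of members in library 1 had a UMI of the antigen receptor and 76% of the surface list, against 44% and 56% at 1000 UMIs. At 3 or more UMIs the B precursor list was at 4496 CPM in the Gfra2 set and 6150.5 in the Cacna1e set. In the central 200 bases the share with CAGCTG was 1.56 times that of all peaks, against 1.31. The cause of these shifts was not tested, beyond the fewer nuclei that some settings leave. Of 127 values for 23 named genes, 104 lay within the counting interval, 23 moved beyond it and 0 changed direction. These genes were chosen for extreme ratios, and alternatives with 0 member UMIs of a gene were left out. A change of direction was therefore unlikely from the outset.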
